A study of Rattus norvegicus with 15 samples.

Results

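The 5 genes described here code for signalling and adhesion proteins that stromal cells release or carry on their surface. They are the cytokine gene Il6 (ENSRNOG00000010278), the chemokine genes Ccl2 (ENSRNOG00000007159) and Cxcl12 (ENSRNOG00000013589), and the adhesion molecule genes Vcam1 (ENSRNOG00000014333) and Icam1 (ENSRNOG00000020679). They were chosen by identifier, as 5 of the 34480 rows of a read count table, and each symbol is the one given with its identifier in that choice, since the table itself holds no symbols. All 5 had enough reads to be tested, among 15543 features. The cells were bone marrow mesenchymal stem cells of Sprague-Dawley rats, grown to confluence, and the study asked how aspirin acts on them in media that drive fat or bone formation. Adi_ASA cells were kept in adipogenic differentiation medium with aspirin (acetylsalicylic acid), and Adi cells in that medium alone. Ost_ASA cells were kept in osteogenic differentiation medium with aspirin, and Ost cells in that medium alone. Control cells are labelled untreated. Each group had 3 libraries, with 18373289 to 22817858 counted reads each. The sources used here state neither the aspirin dose nor the time in each medium, nor whether replicates came from separate rats or dishes. A p-value therefore reflects only how far replicate libraries lay apart, and that spread may be technical.

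Marrow stromal cells form the niche of blood-forming cells, and these genes are part of how they do so. Cxcl12 codes for the chemokine that keeps haematopoietic stem cells and B cell precursors in the marrow through its receptor on those cells. Ccl2 codes for a chemokine that draws monocytes out of the marrow and into tissue. Il6 codes for a cytokine that acts on many cells through a receptor complex and the transcription factor STAT3. Vcam1 and Icam1 code for surface proteins of the immunoglobulin superfamily that bind integrins on leukocytes. Il6, Ccl2, Vcam1 and Icam1 are textbook targets of the transcription factor NF-kB, and aspirin is best known as an inhibitor of the cyclooxygenases.

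In adipogenic medium all 5 genes were below Control. In osteogenic medium Il6, Ccl2, Cxcl12 and Vcam1 were lower still, and Icam1 alone was above Control. Cxcl12 stood at 1.48% of the Control mean in Ost and Vcam1 at 2.85%, against 199% for Icam1. With aspirin, Cxcl12 alone passed the test under TMM scaling, 1.29-fold higher in adipogenic and 1.31-fold lower in osteogenic medium, and Icam1 also passed in adipogenic medium when library totals alone were used. These are levels of bulk RNA, in which fewer cells of a type and less RNA per cell cannot be told apart, and the labelled cell types were not checked against marker genes because the table's identifiers could not be paired with symbols.

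The sequence before the start of the genes is shown because genes with the same textbook regulator went apart in osteogenic medium, with Cxcl12 beside them as a gene that fell and was not named as such a target. By symbol 4 of the 5 genes matched a RefSeq window, and Ccl2 did not. Each is the 250 bases upstream of the gene's start in RefSeq (build GRCr8), written along the gene's strand. The positions are chr4:5894576-5894825 on the minus strand for Il6, chr4:152060531-152060780 on the plus strand for Cxcl12, chr2:206742784-206743033 on the minus strand for Vcam1 and chr8:27829595-27829844 on the plus strand for Icam1. Capitals mark matches to an NF-kB type motif of 9 letters, GGNNNTTCC, on either strand.
Il6: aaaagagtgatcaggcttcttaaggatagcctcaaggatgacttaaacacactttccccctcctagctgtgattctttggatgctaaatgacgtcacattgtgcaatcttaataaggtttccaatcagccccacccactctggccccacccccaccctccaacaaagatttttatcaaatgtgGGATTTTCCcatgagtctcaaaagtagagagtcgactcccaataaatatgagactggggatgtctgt
Cxcl12: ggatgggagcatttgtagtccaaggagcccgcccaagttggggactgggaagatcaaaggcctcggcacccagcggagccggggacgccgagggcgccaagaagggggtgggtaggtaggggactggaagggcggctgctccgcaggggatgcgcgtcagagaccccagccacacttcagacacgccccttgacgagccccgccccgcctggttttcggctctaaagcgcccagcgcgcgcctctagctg
Vcam1: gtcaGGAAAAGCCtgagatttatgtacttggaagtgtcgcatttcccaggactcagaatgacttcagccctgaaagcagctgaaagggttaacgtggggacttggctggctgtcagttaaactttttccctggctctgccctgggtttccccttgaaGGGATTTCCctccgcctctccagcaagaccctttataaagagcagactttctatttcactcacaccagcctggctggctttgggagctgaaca
Icam1: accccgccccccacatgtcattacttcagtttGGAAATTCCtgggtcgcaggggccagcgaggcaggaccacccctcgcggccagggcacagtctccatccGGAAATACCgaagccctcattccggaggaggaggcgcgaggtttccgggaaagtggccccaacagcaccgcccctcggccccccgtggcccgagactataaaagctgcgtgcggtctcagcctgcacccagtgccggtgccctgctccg
The motif stood in the Il6 window with its first base 67 bases before the start, in the Vcam1 window at 246 and 93 bases and in the Icam1 window at 218 and 149 bases. The match of Icam1 at 218 bases reads as a match on both strands. No match lay in the Cxcl12 window. Of all 33469 promoter windows of that length, 15.4% held the motif. Vcam1 and Icam1 also held the TATA motif TATAAA on either strand, as did 12.9% of all windows. None of the 4 windows held an exact match to the AP-1 motif TGANTCA, found in 6.34% of all. Sequence further upstream than 250 bases was not searched. A match describes letters in the sequence and not a bound site, and binding was not measured here. Only exact matches to the motif were marked, so an unmarked stretch may hold related sequence, such as gggtttccc in the Vcam1 window. Windows of RefSeq genes served as background, and the motifs were chosen with textbook sites of these genes in mind. The share of 15.4% is therefore no test of enrichment in these genes. A link between the matches and the direction of change was not tested.

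Il6, the cytokine gene, fell with both media. It had 28.7, 43.6 and 44.1 CPM (counts per 1000000 reads after TMM scaling) in the Adi_ASA libraries, and 59.6, 54.3 and 41.1 CPM in the Adi libraries. The Ost_ASA libraries had 12.2, 11.4 and 8.14 CPM and the Ost libraries 9.54, 11.3 and 11.7 CPM, against 128, 124 and 120.0 CPM in Control. All Control libraries lay above all others and all osteogenic libraries below all others, while groups with and without aspirin overlapped in either medium. Relative to Control, the log2 fold change was -1.27 in Adi (SE 0.18, edgeR adjusted p = 0.00015) and -3.52 in Ost (SE 0.21, edgeR adjusted p = 2.33e-08), so that Il6 was 2.41-fold and 11.5-fold lower. With aspirin it was -0.41 relative to Adi (95% interval -0.82 to 0.00, edgeR adjusted p = 0.299) and -0.04 relative to Ost (-0.52 to 0.45, edgeR adjusted p = 0.972), and neither passed the test. Replicate 1 of Adi_ASA held the lowest Il6 level of that group and replicate 3 the lowest of Adi. Without the first of these the aspirin difference was -0.23, and without the second it was -0.55, the extremes when single libraries were left out.

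Ccl2, the monocyte chemokine gene, followed the same order with a smaller fall in adipogenic medium. The Adi_ASA libraries had 191, 232 and 239 CPM and the Adi libraries 293, 241 and 246 CPM. The Ost_ASA libraries had 46.5, 45.8 and 44.3 CPM and the Ost libraries 45.6, 45.9 and 47.2 CPM, against 423, 419 and 388 CPM in Control. The osteogenic libraries were within 3 CPM of each other, and the Adi_ASA libraries all lay below the Adi libraries, by as little as 1.28 CPM. Relative to Control, Ccl2 was 1.58-fold lower in Adi (log2 fold change -0.66, SE 0.08, edgeR adjusted p = 6.38e-07) and 8.87-fold lower in Ost (-3.15, SE 0.09, edgeR adjusted p = 1.19e-17). The aspirin difference was -0.24 in adipogenic medium (95% interval -0.40 to -0.07, unadjusted p = 0.0069) and did not pass the edgeR test after adjustment over all features (adjusted p = 0.102). It was -0.14 both without Adi replicate 1, the highest of its group, and without Adi_ASA replicate 1, the lowest of its group. In osteogenic medium it was -0.02 (95% interval -0.20 to 0.15, edgeR adjusted p = 0.947). That interval runs from 1.15-fold lower to 1.11-fold higher and reflects the spread of replicate libraries only.

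Cxcl12, the niche chemokine gene, had the largest fall of the 5 genes in osteogenic medium and was the only one that passed the test with aspirin. The Adi_ASA libraries had 464, 504 and 572 CPM and the Adi libraries 406, 413 and 375 CPM. The Ost_ASA libraries had 18.6, 15.3 and 14.6 CPM and the Ost libraries 22.4, 21.8 and 19.3 CPM, against 1503, 1481 and 1313 CPM in Control. No groups overlapped for this gene, and the order was Control, Adi_ASA, Adi, Ost and Ost_ASA. Relative to Control, Cxcl12 was 3.60-fold lower in Adi (log2 fold change -1.85, SE 0.09, edgeR adjusted p = 1.69e-12) and 67.7-fold lower in Ost (95% interval 57.9 to 79.1, edgeR adjusted p = 2.78e-20). In the Ost comparison 1.19% of all features tested had a more negative log2 fold change.

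Cxcl12 differed with aspirin in opposite directions in the media. It was 1.29-fold higher in Adi_ASA than in Adi (log2 fold change 0.37, SE 0.08, 95% interval 0.19 to 0.54, edgeR adjusted p = 0.0167) and 1.31-fold lower in Ost_ASA than in Ost (log2 fold change -0.39, SE 0.10, 95% interval -0.60 to -0.17, edgeR adjusted p = 0.0393). The difference between these effects, adipogenic minus osteogenic, was 0.75 on the log2 scale (SE 0.13, edgeR adjusted p = 0.00257) and stayed past the threshold in each of 20 alternatives. Each effect by itself was less firm. The rise in adipogenic medium lost its call without Adi replicate 3 (log2 fold change 0.33, adjusted p = 0.0868) and without Adi_ASA replicate 3 (0.28, adjusted p = 0.112), with edgeR or DESeq2 adjusted p of 0.00113 to 0.112 over 14 alternatives. The fall in osteogenic medium lost it without Ost replicates 1 and 2 (adjusted p = 0.188 and 0.136), without Ost_ASA replicates 2 and 3 (0.142 and 0.193), and when only the Ost_ASA and Ost libraries were fitted (0.0559), in a range of 0.00604 to 0.193. With aspirin Cxcl12 was still 2.79-fold lower in Adi_ASA than in Control (log2 fold change -1.48, SE 0.09, edgeR adjusted p = 3.51e-11).

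Vcam1, which codes for the ligand of integrins on lymphocytes and monocytes, had the largest fall of the 5 genes in adipogenic medium. The Adi_ASA libraries had 16.5, 15.5 and 18.2 CPM and the Adi libraries 16.0, 13.4 and 9.06 CPM. The Ost_ASA libraries had 2.77, 2.47 and 1.66 CPM and the Ost libraries 3.01, 3.25 and 2.17 CPM, against 99.0, 104 and 92.6 CPM in Control. The groups with and without aspirin overlapped in both media, and all other groups were apart. Relative to Control, Vcam1 was 7.70-fold lower in Adi (log2 fold change -2.94, SE 0.18, edgeR adjusted p = 3.68e-08) and 35.2-fold lower in Ost (-5.14, SE 0.21, edgeR adjusted p = 1.66e-10). In Adi 0.862% of all features had a more negative log2 fold change. The osteogenic levels rest on few reads, 38 to 62 in Ost_ASA and 49 to 70 in Ost libraries, and the lowest count of 38 has an exact Poisson 95% interval of 26.9 to 52.2 reads for counting error only. The aspirin difference was 0.39 in adipogenic medium (95% interval -0.02 to 0.79, edgeR adjusted p = 0.32) and -0.28 in osteogenic medium (-0.86 to 0.29, edgeR adjusted p = 0.706), so changes of up to 1.73-fold higher and 1.81-fold lower lie within these intervals. Single libraries moved both values: the first was 0.19 without Adi replicate 3 and 0.58 without Adi replicate 1. The second was -0.10 without Ost_ASA replicate 3, -0.18 without Ost replicate 2 and -0.44 without either Ost replicate 3 or Ost_ASA replicate 1.

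Icam1, which codes for the ligand of the leukocyte integrins of the LFA and Mac type, was the exception. The Adi_ASA libraries had 162, 158 and 179.9 CPM and the Adi libraries 159, 144 and 138 CPM. The Ost_ASA libraries had 391, 343 and 417 CPM and the Ost libraries 432, 431 and 460.3 CPM, against 215, 227 and 224 CPM in Control. All osteogenic libraries lay above Control and all adipogenic libraries below it. Relative to Control, Icam1 was 1.51-fold lower in Adi (log2 fold change -0.60, SE 0.07, edgeR adjusted p = 5.24e-07) and 1.99-fold higher in Ost (0.99, SE 0.07, edgeR adjusted p = 4.95e-11), and 3.00-fold lower in Adi than in Ost (-1.59, SE 0.07, edgeR adjusted p = 2.59e-14).

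With aspirin, Icam1 had log2 fold changes of 0.18 in adipogenic medium (95% interval 0.03 to 0.33, edgeR adjusted p = 0.177) and -0.20 in osteogenic medium (-0.35 to -0.06, edgeR adjusted p = 0.133), and neither passed the test after adjustment. The Ost_ASA libraries all lay below the Ost libraries, and 1 Adi library lay within the Adi_ASA range. Without Ost_ASA replicate 2 the osteogenic value was -0.13. The adipogenic difference passed with library totals alone in place of TMM scaling (log2 fold change 0.24, edgeR adjusted p = 0.0483, in a range of 0.0483 to 0.539 over 14 alternatives). The TMM factors were 0.963 to 0.97 in Adi_ASA and 0.911 to 0.944 in Adi. Their part in the result was tested only through the other scalings. The difference between the aspirin effects in the media was 0.38 on the log2 scale (SE 0.10, edgeR adjusted p = 0.0373). It lost its call when the Control libraries were left out of the fit (adjusted p = 0.0603) and in 8 of 12 fits that left out 1 library, namely Adi replicates 2 and 3, Adi_ASA replicates 1 and 3, each Ost replicate and Ost_ASA replicate 2. The adjusted p over its 20 alternatives was 0.00855 to 0.133.

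**Figure D1:**
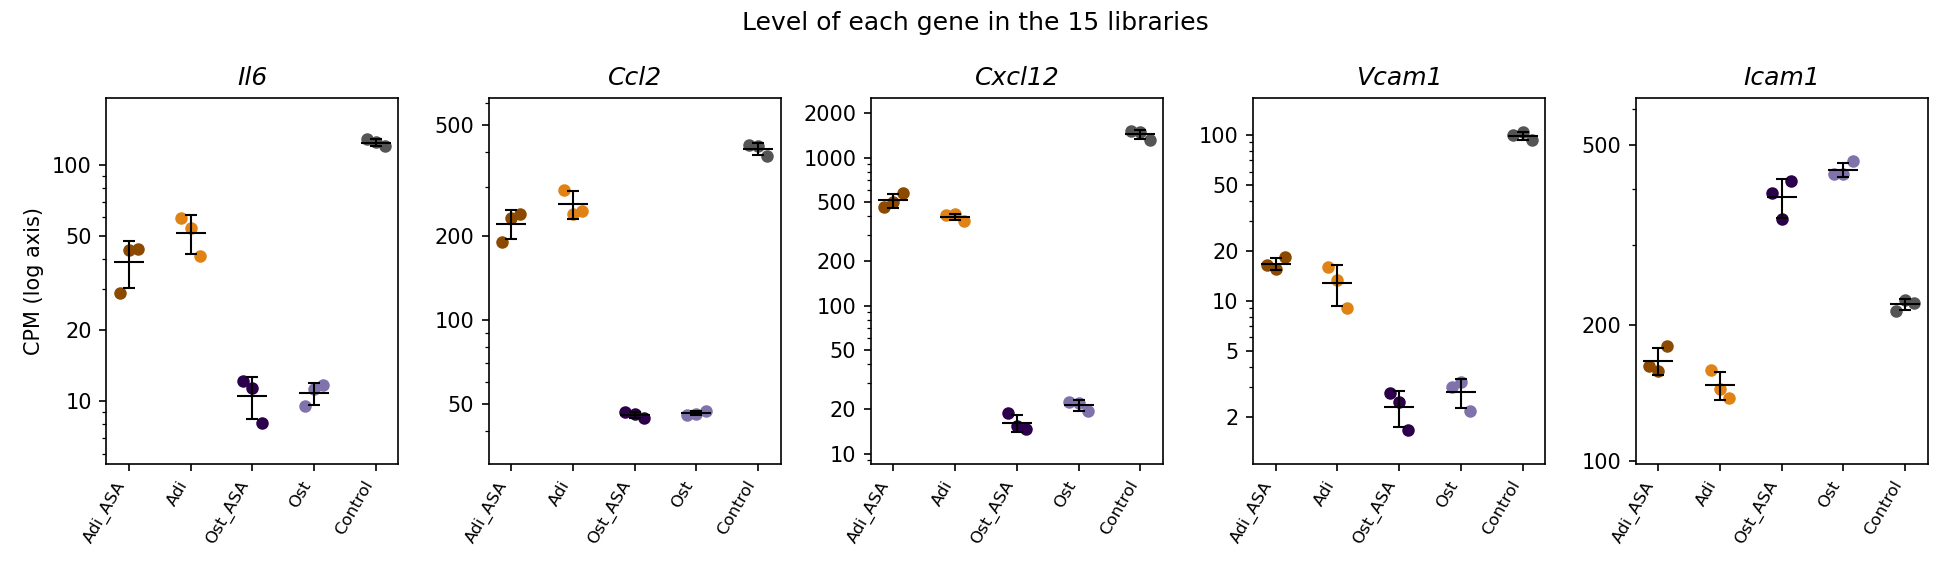
Level of each gene in CPM (vertical log axis) in the 3 libraries of each group, with the mean and SD in black. For Il6, Ccl2, Cxcl12 and Vcam1 the Control libraries are highest and the osteogenic groups lowest, and for Icam1 the osteogenic groups are highest, at 343 to 460.3 CPM.

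Read together, the genes followed a common direction in adipogenic medium. All 5 of 5 were lower in Adi than in Control, where 24.4% of all features passed the test in that direction, and 3 of 5 (Il6, Cxcl12 and Vcam1) were at least 2-fold lower, against 6.74% of all features. The median log2 fold change of the 5 genes was -1.27, beside -0.01 for all features. With library totals alone, the median of all features moved to -0.20 and the share that fell to 40.6%, with 25.6% of the calls being rises in place of 50.1%, and the 5 genes kept their direction, with Icam1 at -0.79. In Adi_ASA relative to Control, a comparison added after seeing the data, 5 of 5 were again lower (21.9% of all features), from -0.41 for Icam1 to -2.56 for Vcam1. That comparison shares its Control libraries with the one above. With library totals alone the median of all features was -0.14 in it, and 30.7% of the calls were rises in place of 50.8%.

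In osteogenic medium 4 of 5 genes were lower in Ost than in Control, where 34.8% of all features fell, and 1 of 5 was higher, where 34.2% of all features rose. The 4 that fell were all at least 2-fold lower, as were 16.0% of all features. Their log2 fold changes were -3.15 to -6.08, and between 1.19% and 4.40% of all features were more negative. With aspirin, relative to the same Control libraries, the same split was seen, with 4 lower (34.8% of all features) and Icam1 higher (34.5%). The log2 fold changes of Ost_ASA relative to Control were -6.47 for Cxcl12, -5.42 for Vcam1, -3.56 for Il6, -3.17 for Ccl2 and 0.79 for Icam1.

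The media differed directly for every gene. Il6, Ccl2, Cxcl12 and Vcam1 were higher in Adi than in Ost, where 33.0% of all features were higher, and Icam1 was lower, where 33.5% were lower. The log2 fold changes of Adi over Ost were 2.25 for Il6 (SE 0.21), 2.49 for Ccl2 (SE 0.08), 4.23 for Cxcl12 (SE 0.10) and 2.19 for Vcam1 (SE 0.22), with edgeR adjusted p of at most 1.56e-06. With library totals alone 38.9% of the calls of this comparison were higher in Adi in place of 49.6%, the median of all features was -0.15, and no gene changed direction. With aspirin in both media the same 4 genes were higher in Adi_ASA than in Ost_ASA (32.9% of all features) and Icam1 lower (32.8%). Cxcl12 had there a log2 fold change of 4.99 (SE 0.10, edgeR adjusted p = 5.3e-19).

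**Figure D2:**
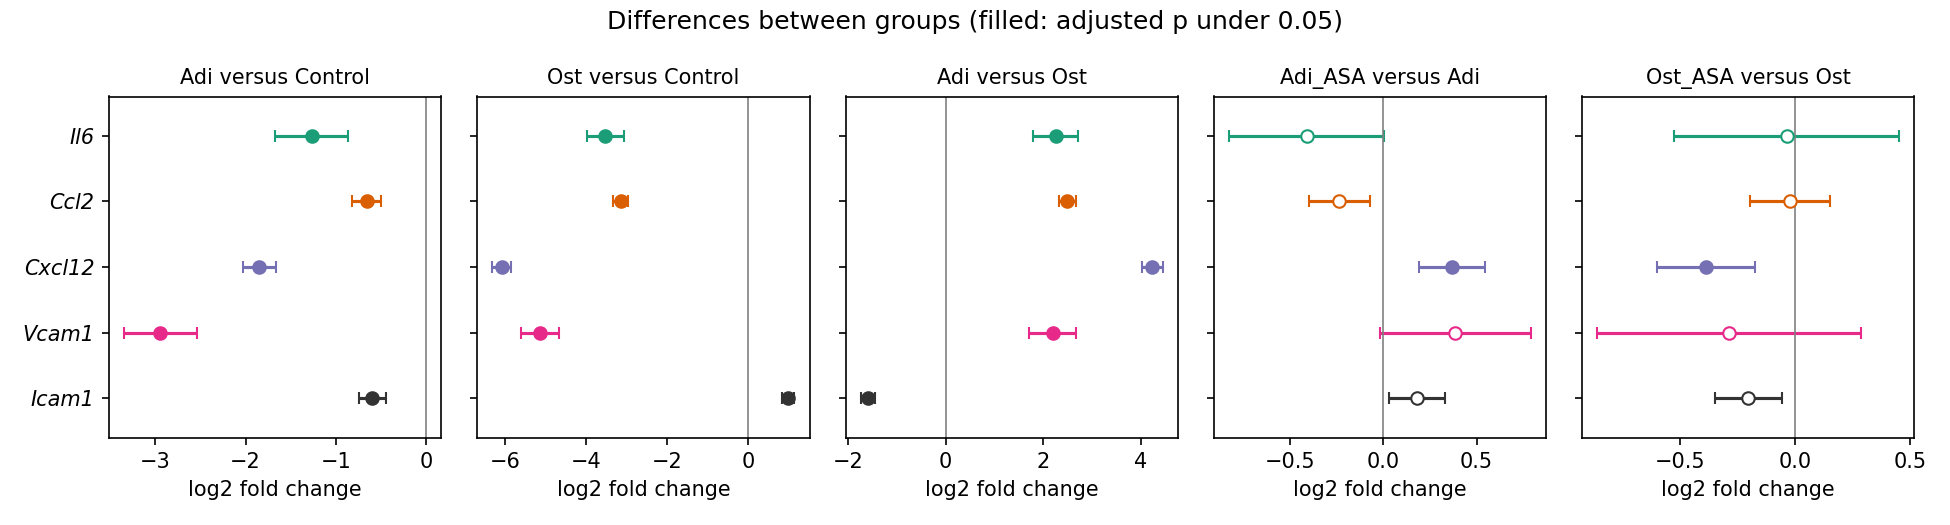
Log2 fold change of each gene with its 95% interval in 5 comparisons, each on its own horizontal axis; filled points passed the edgeR test at an adjusted p of 0.05. All points of the 3 medium comparisons are filled, and of the aspirin comparisons Cxcl12 alone, at 0.37 in adipogenic and -0.39 in osteogenic medium.

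With aspirin 1 of the 5 genes, Cxcl12, passed the test in each medium. In adipogenic medium 4.34% of all features passed the test, and in osteogenic medium 3.63%. At an unadjusted p under 0.05 there were 3 of the 5 genes in adipogenic medium (Ccl2, Cxcl12 and Icam1), as were 17.1% of all features, and 2 in osteogenic medium (Cxcl12 and Icam1), as were 14.8%. The libraries with and without aspirin did not overlap for 2 of 5 genes in adipogenic medium (Ccl2 and Cxcl12), as for 23.5% of all features, and for 2 of 5 in osteogenic medium (Cxcl12 and Icam1), as for 18.5%. In adipogenic medium the 5 genes did not share a direction, with log2 fold changes of -0.41 for Il6 and -0.24 for Ccl2, and 0.37, 0.39 and 0.18 for Cxcl12, Vcam1 and Icam1. In osteogenic medium all 5 values were below 0, from -0.39 for Cxcl12 to -0.02 for Ccl2. The difference between the media passed the test for 2 of 5, Cxcl12 and Icam1, against 2.83% of all features. For Vcam1 it was 0.67 (95% interval -0.03 to 1.37, edgeR adjusted p = 0.396), for Ccl2 -0.21 (-0.45 to 0.03, edgeR adjusted p = 0.442) and for Il6 -0.38 (-1.02 to 0.27, edgeR adjusted p = 0.653). With library totals alone 81.8% of the calls in adipogenic medium were rises in place of 57.3%, and 68.6% of the differences between media were positive in place of 42.3%.

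**Figure D3:**
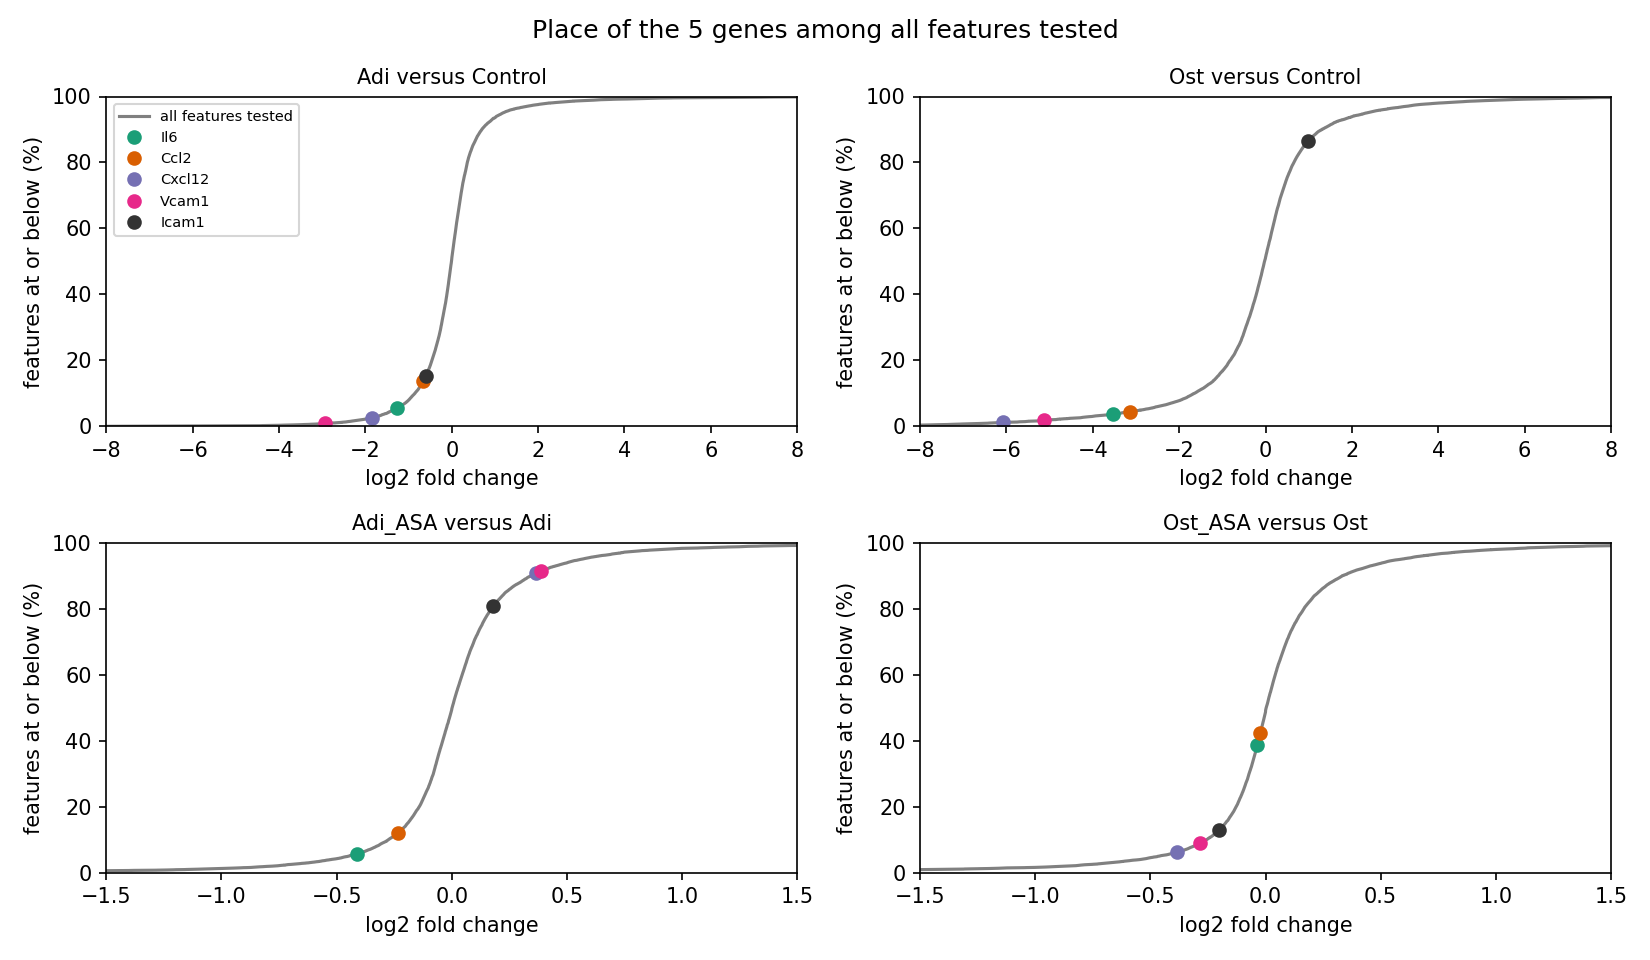
Cumulative share of all 15543 features (vertical axis, percent) at or below each log2 fold change (horizontal axis, narrower in the lower panels), with the 5 genes as points. In Ost versus Control 4 genes lie in the lowest 4.40% and Icam1 has 86.5% of features below it. With aspirin the share of features below a gene runs from 5.68% (Il6) to 91.3% (Vcam1) in adipogenic medium. In osteogenic medium it runs from 6.22% (Cxcl12) to 42.4% (Ccl2).

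Ratios of the reads of 2 genes within a library do not depend on the scaling between libraries. They were chosen after seeing the levels and were not tested, and a ratio of reads is not a ratio of molecules, since it also holds the lengths of the transcripts. Of the adhesion genes, there were 9.83, 10.2 and 9.87 Icam1 reads per Vcam1 read in Adi_ASA, and 9.93, 10.8 and 15.2 in Adi libraries. There were 141, 139 and 250.4 in Ost_ASA and 144, 133 and 212 in Ost libraries, against 2.17, 2.18 and 2.42 in Control. The ratio was thus higher in every library in a medium than in every Control library, and highest in the osteogenic groups. Its osteogenic values rest on few Vcam1 reads, 38 to 70 per library, with 38 in the library at 250.4.

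Of the chemokine genes, there were 2.43, 2.17 and 2.39 Cxcl12 reads per Ccl2 read in Adi_ASA, and 1.38, 1.72 and 1.53 in Adi libraries. There were 0.401, 0.334 and 0.33 in Ost_ASA and 0.492, 0.475 and 0.408 in Ost libraries, against 3.55, 3.53 and 3.39 in Control. Every Adi_ASA library lay above every Adi library, and every Ost_ASA library below every Ost library. In adipogenic medium this follows from the levels given above, with Adi_ASA above Adi for Cxcl12 and below it for Ccl2. In osteogenic medium it repeats the order of Cxcl12, since Ccl2 differed little there (means of 45.5 CPM in Ost_ASA and 46.2 CPM in Ost). How many other gene pairs separate in this way was not examined. The Adi_ASA mean of 2.33 ± 0.139 (SD, n = 3) stood between the Adi mean of 1.54 ± 0.168 and the Control mean of 3.49 ± 0.0888.

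**Figure D4:**
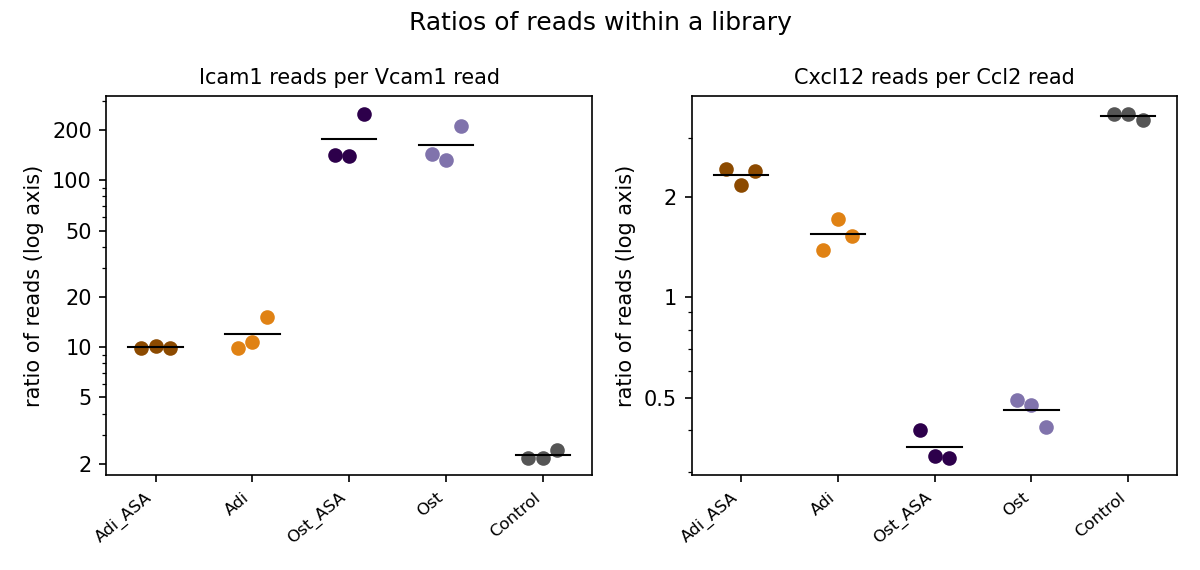
Ratio of the reads of 2 genes in each library (vertical log axis), with group means as black lines. Icam1 reads per Vcam1 read reach 250.4 in an Ost_ASA library with 38 Vcam1 reads, against 2.17 to 2.42 in Control. Cxcl12 reads per Ccl2 read separate libraries with and without aspirin in both media, as the Cxcl12 levels by themselves do.

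Among the 5 genes, the profiles of Il6 and Ccl2 were the closest over the 5 groups. Their group means of log2 CPM, each centred on its own mean, differed by a root mean square of 0.271, and those of Cxcl12 and Icam1, the most distant, by 3.16. Among 10333 other features with an Ensembl identifier and a mean of at least 5 CPM, the feature closest to Il6 was ENSRNOG00000015982 at 0.123, with a median over all features of 1.40. It had group means of 4.57 CPM in Adi_ASA, 5.66 in Adi, 1.04 in Ost_ASA, 1.39 in Ost and 15.1 in Control. The feature closest to Cxcl12 was ENSRNOG00000002843 at 0.141, with the next feature at 0.152 and a median of 2.63. The group means of ENSRNOG00000002843 were 265 CPM in Adi_ASA, 211 in Adi, 10.4 in Ost_ASA, 11.6 in Ost and 916 in Control. They were in the same order as those of Cxcl12, to which it was picked as closest. The files pair neither identifier with a gene name.

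Replicate spread differed between the genes. The coefficient of variation within a group was 1.84% to 11.8% for Ccl2, 2.76% to 9.80% for Icam1 and 5.12% to 13.3% for Cxcl12. It was 3.40% to 22.6% for Il6 and 5.75% to 27.3% for Vcam1, the genes with the widest intervals for the aspirin effect. Both varied least in Control. In Adi, replicate 3 had the lowest level of Il6, Cxcl12, Vcam1 and Icam1, and in Ost_ASA replicate 3 had the lowest level of Il6, Ccl2, Cxcl12 and Vcam1.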

How the data were processed

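RNA sequencing counts of 15 libraries in 5 groups of 3 were used as deposited by the authors, as whole-number read counts per feature. The tools named per the submitters' processing notes are DESeq 1.18.0, HTSeq 0.9.1 and HISAT2 2.0.4, with build Rnor_6.0. Their roles, the annotation and the use of strand are not given, so reads shared with overlapping genes are uncertain. The 34480 rows name 32883 Ensembl identifiers and 1597 other features. The reference gene table (GRCr8) paired 0 rows with a symbol, so the pathway and marker lists could not be run.

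The tests used edgeR 4.0.16 (R 4.3.3): filterByExpr over the 5 groups (15543 features), TMM scaling, 1 quasi-likelihood model of group means with robust estimation, and Benjamini-Hochberg adjustment over all features at 0.05. A standard error is the size of the log2 fold change divided by the square root of F, and 95% intervals use the test's degrees of freedom. The model was tested on simulated counts, with changes placed in Adi_ASA at features of at least 5 CPM. Relative to Adi it recovered 16 of 50 changes of 1.25-fold, 40 of 50 of 1.5-fold and 48 of 50 of 2-fold, with 6 false calls. Most changes of 1.25-fold were thus missed. Alternatives were RLE, upper-quartile and no factors, other filters, DESeq2 1.42.0, fewer groups, a replicate block and each library left out. The 5 genes, lists and tests were chosen with earlier results of these data known; 3 comparisons of aspirin-treated groups, the ratios and the motifs were added after seeing the data. The rule for named genes took all 5 genes and, without symbols, the feature closest in profile to Il6 and to Cxcl12. Replicates were not copies of one library: the chi-square of each pair divided by its degrees of freedom was 5.41 to 13.5.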

Additional observations from a re-analysis of the deposited data

Results flagged for a closer look

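The aspirin effect differed between the media for 2 of the 5 genes by a test of the difference itself, in the edgeR model of all libraries, as for 2.83% of all features. For Cxcl12 the effect in adipogenic minus that in osteogenic medium was 0.75 on the log2 scale (95% interval 0.47 to 1.03, adjusted p = 0.00257, past the threshold in all 20 alternatives). All 3 Adi_ASA libraries lay above all Adi libraries, and all 3 Ost_ASA libraries below all Ost libraries, there by 0.60 CPM. For Icam1 the difference between the effects was 0.38 (95% interval 0.18 to 0.59, adjusted p = 0.0373), with the Ost_ASA libraries all below the Ost libraries and an overlap of Adi_ASA and Adi libraries. Libraries with and without aspirin did not overlap for 23.5% of all features in adipogenic and 18.5% in osteogenic medium. The call for Icam1 was lost in 9 of 20 alternatives (adjusted p 0.00855 to 0.133). Groups of 3 libraries are too small for a search for single outlying samples.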

How the results depend on the processing

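Of 45 results for the 5 genes (9 comparisons each), 40 kept their direction and their side of the threshold under every alternative run, among them all 30 that compare media or a medium with Control. The others were these. Cxcl12 in Adi_ASA versus Adi was 0.28 to 0.44 when single libraries were left out, in all cases a rise, and Cxcl12 in Ost_ASA versus Ost was -0.50 to -0.32, and -0.39 when only those groups were fitted. Icam1 in Adi_ASA versus Adi was 0.24 with library totals alone. Its difference between media was 0.38 without Control in the fit and 0.31 to 0.45 with single libraries left out. Il6 in Ost_ASA versus Ost, at -0.04, changed sign without Ost replicate 3 (0.03) and without Ost_ASA replicate 3 (0.12), in a range of -0.15 to 0.12, and passed the test in no fit. The leave-out fits had smaller groups and kept other sets of features, and the cause of these changes was not tested. The number of features that passed with aspirin, 675 in adipogenic medium, was 284 to 529 with single libraries left out; in osteogenic medium it was 564 and 335 to 536, and for the difference between media 440 and 288 to 427. No shared effect of replicate number was seen, which cannot show whether libraries were paired by design. Deviations from group means correlated at -0.075 to 0.044 over 30 same-numbered pairs and at -0.076 to 0.085 over other pairs. Of 15 libraries, 3 correlated best with their own number. A replicate block changed no call of the 5 genes, and gave 572, 516 and 404 features in these comparisons. Depth limits Vcam1 most, at 38 to 70 reads per osteogenic library.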

Other observations

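Il6 and Ccl2 fell together but not to the same degree, as the ratio of their reads shows, a ratio chosen after seeing the data and not tested. There were 0.174 ± 0.0208 Il6 reads per Ccl2 read in Adi_ASA and 0.199 ± 0.0295 in Adi (SD, n = 3 each). There were 0.232 ± 0.042 in Ost_ASA and 0.234 ± 0.0217 in Ost, against 0.303 ± 0.00648 in Control. All 12 libraries in a medium lay at 0.15 to 0.263, below the 0.297 to 0.31 of Control.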
